A study of Mus musculus with 4 samples.

Results

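The genes described here are the caspases, the Bcl2 family and the regulators that act directly on them, in 2 populations of hair cell (HC) progenitors from the neonatal mouse cochlea. They were chosen by gene symbol alone, as every *Casp* gene with a number, every gene whose symbol begins with *Bcl2*, and 19 named genes of the same pathway. This gave 42 members among the 23997 genes of the deposited table. Of these, 32 had a level of 1 or more in either population in FPKM, the number of sequenced fragments scaled to transcript length and to the mapped total, and passed the filter used here for all genes. The other 10 did not. The first population, Lgr5+ progenitors, consisted of EGFP+ cells isolated by flow cytometry from the cochlea in Lgr5-EGFP-IRES-creERT2 mice, and the second, Lgr6+ progenitors, of cells isolated in the same manner from Lgr6-EGFP-IRES-CreERT2 mice, all at postnatal day 3 and labelled as strain C57BL/6. Both groups thus carried an EGFP and Cre cassette in the *Lgr* gene that marks them, and no damage or drug was given in the RNA-Seq experiment. The study describes Lgr6+ cells as lying within the Lgr5+ population, so the groups are not exclusive cell types. Per the methods, RNA of each population came from 1 extraction that was split into 3 fractions, so its replicates are technical. The labels list 4 libraries, 2 for each population, and the table gives 1 combined FPKM per gene and population, so that the libraries behind each combined value are not certain. No spread between replicates can therefore be computed for any value, no test was run, and every difference below compares these combined values without a replicate check.

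Caspases are cysteine proteases that are made as inactive zymogens and dismantle the cell once activated. In the mitochondrial pathway, BH3-only proteins sense stress and engage the pro-survival Bcl2 proteins, Bax and Bak1 then permeabilize the outer mitochondrial membrane, and released cytochrome c assembles with Apaf1 into the apoptosome that activates caspase 9 and, through it, the executioner caspases. IAP proteins such as Xiap restrain caspases, and p53 (*Trp53*) switches on several of the pro-apoptotic genes. In the cochlea, apoptosis is best known as a route by which HCs are lost after ototoxic drugs and noise.

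Members are compared by their log2 change, which is the Lgr6+ value of log2(FPKM + 1) less the Lgr5+ value, so that a negative number belongs to a gene with more transcript in Lgr5+ progenitors. Because 1 was added, differences between low levels come out too small. The table lists a level per length of transcript, which allows genes to be compared within a population as well. The summed FPKM of the whole table was 754163 in Lgr5+ and 627932 in Lgr6+ progenitors. The value at which low levels, multiplied by transcript length, piled up most within the range searched is called a step here. Other pile-ups were not sought. The step was 3.21 times as large in Lgr5+ as in Lgr6+ progenitors. Whether low values also lay at multiples of the step was not tested. Supporting cell markers were present in both, *Sox2* at an FPKM of 139.6 and 54.8, as were HC markers, *Myo7a* at 19.3 and 47.0. Of the sorting genes, *Lgr6* was at 2.06 and 2.90, and *Lgr5* at 9.65 in Lgr5+ and 25.0 in Lgr6+ progenitors. Because Lgr6+ cells are described as lying within the Lgr5+ population, the labels set no direction for *Lgr5*. Every direction given here rests on the names of the columns, which the table alone cannot check against the sorts. In sorted bulk RNA, fewer cells of a type and less RNA per cell cannot be told apart.

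The promoters of 3 members are shown because they set out the p53 module, its transcription factor, its best known pore-forming target and its negative regulator, and *Mdm2* lay on the other side of the comparison from *Bax* and *Trp53*. The sequences are the 250 bases before the annotated start in RefSeq (GRCm38.p6), 5′ to 3′ on the strand of the gene, at chr7:45466899-45467148 on the minus strand for *Bax*, at chr11:69580109-69580358 on the plus strand for *Trp53* and at chr10:117710759-117711008 on the minus strand for *Mdm2*. Capitals mark a match to the p53 consensus half-site.
Bax: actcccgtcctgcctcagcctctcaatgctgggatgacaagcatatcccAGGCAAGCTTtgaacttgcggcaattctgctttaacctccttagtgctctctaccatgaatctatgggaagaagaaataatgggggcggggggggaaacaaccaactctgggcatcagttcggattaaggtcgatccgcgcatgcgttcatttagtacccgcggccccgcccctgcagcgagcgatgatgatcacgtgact
Trp53: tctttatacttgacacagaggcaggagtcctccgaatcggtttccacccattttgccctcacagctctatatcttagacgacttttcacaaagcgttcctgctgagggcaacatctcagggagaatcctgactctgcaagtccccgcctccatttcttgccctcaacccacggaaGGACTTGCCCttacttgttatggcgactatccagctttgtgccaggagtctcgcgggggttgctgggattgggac
Mdm2: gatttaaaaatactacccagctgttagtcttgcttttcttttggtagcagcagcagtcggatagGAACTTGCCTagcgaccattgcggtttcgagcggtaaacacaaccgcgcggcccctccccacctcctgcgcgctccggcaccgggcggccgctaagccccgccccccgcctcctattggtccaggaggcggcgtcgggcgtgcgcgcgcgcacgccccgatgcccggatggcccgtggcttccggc

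The half-site begins 201 bases before the start in *Bax*, 75 in *Trp53* and 186 in *Mdm2*, with 1 match in each printed stretch. RefSeq promoters were found for 37 of the 42 members, with 51 promoters in all because some genes have several starts. Motifs were sought in the 250 bases before each start. The half-site, whose consensus is the same on both strands, was matched in 4 of the 51 member promoters, those 3 and *Bmf*, which is 7.84%, against 7.13% of the 32851 promoters in the RefSeq table. The share was thus close to that of all promoters. The GC box GGGCGG, on either strand, was in 52.9% of member promoters and in 32.7% of all, the CCAAT box in 27.5% and 33.8%, TATAAA in 5.88% and 12.4%, the E-box CACGTG in 5.88% and 6.02%, and TGACGTCA in 1.96% and 1.55%. The E-box lay in the promoters of *Bax*, *Bbc3* and *Casp1*, and none of these motifs overlapped the half-sites printed here. A match is a description of letters and not evidence of binding.

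Most members that were detected had the higher level in Lgr5+ progenitors. Of the 32 members above the filter, 23 were lower and 9 higher in Lgr6+ progenitors, which is 71.9% lower against 48.3% of the 13436 genes above the filter. At least 1.5-fold higher levels in Lgr5+ progenitors were found for 13 members, or 40.6% of the 32, where the share of all genes above the filter was 23.3%. At least 1.5-fold higher levels in Lgr6+ progenitors were found for 6 members, or 18.8%, where the share of all genes was 28.5%. The median log2 change was -0.47 for the members above the filter and 0.03 for all genes above it. At 2-fold the numbers were 7 and 5 members, or 21.9% and 15.6%, against 11.7% and 18.2% of all genes. The share higher in Lgr6+ progenitors was thus near that of all genes. Scaling both populations to the same summed FPKM moves every gene toward Lgr6+ progenitors, and the median of all genes to 0.28. Under it 9 members, or 28.1%, were higher in Lgr5+ progenitors, against 16.3% of all genes, and 7, or 21.9%, were higher in Lgr6+ progenitors, against 37.6% of all genes. The share of the past-threshold members that were higher in Lgr6+ progenitors was 43.8% under it and 31.6% without it. *Bcl2*, *Bcl2l11*, *Bcl2l12* and *Casp2* came inside the limit under this scaling, and *Bcl2l11* and *Bcl2l12* also under upper quartile scaling. Since the filter admits a gene through its higher population, these shares describe the members that passed and are no test of the family.

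**Figure D1:**
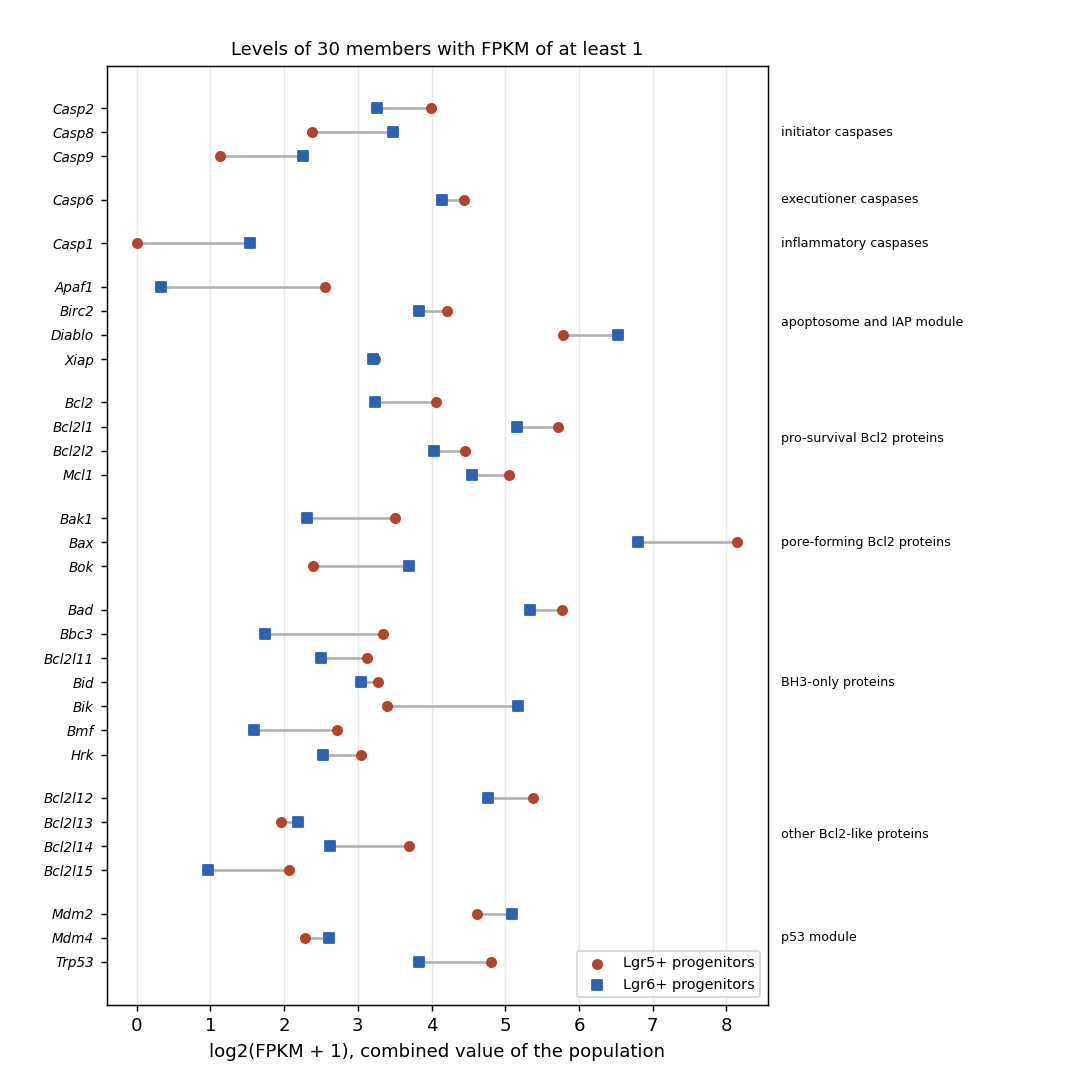
Levels of 30 members above the filter in Lgr5+ (red circles) and Lgr6+ progenitors (blue squares), as log2(FPKM + 1), grouped by role; each point is 1 combined value with no error. *Bax* is the highest member in both populations, and *Bok*, *Bik*, *Casp8*, *Casp9*, *Casp1* and *Diablo* are the members whose blue square lies at least 1.5-fold to the right of the red circle.

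**Figure D2:**
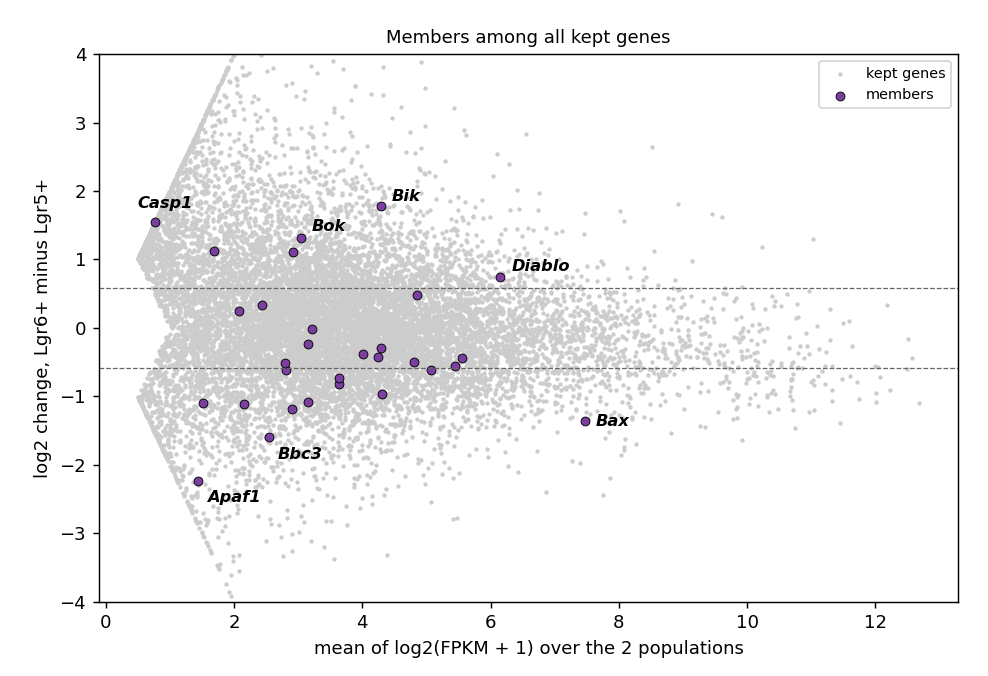
Log2 change of each gene above the filter against its mean log2(FPKM + 1), with 30 members in purple and the 1.5-fold limits as dashed lines; 51 genes past a log2 change of 4 in either direction are not drawn. *Bax* lies below the lower limit at high expression, whereas *Apaf1* and *Casp1* lie at the low end, where 1 population is close to 0.

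The pore-forming proteins, which open the mitochondrial outer membrane, were split between the populations. *Bax*, located on chromosome 7 (45461695 to 45466898), stood at an FPKM of 283 in Lgr5+ and 109.96 in Lgr6+ progenitors, with a log2 change of -1.36. It was the most abundant member in both, at rank 430 of all genes in Lgr5+ and rank 908 in Lgr6+ progenitors, and made up 35.5% and 19.3% of the summed FPKM of the 42 members. *Bak1*, which can stand in for *Bax*, had 10.3 and 3.95, a log2 change of -1.19. *Bok*, the least understood pore-former, differed in the opposite direction, from 4.24 in Lgr5+ to 12.0 in Lgr6+ progenitors, with a log2 change of 1.31. The order below *Bax* was inverted, with *Bak1* at 2.43 times the level of *Bok* in Lgr5+ and at 0.330 times in Lgr6+ progenitors. Abundant genes leaned the same way, since the 867 genes that reached 100 FPKM on both sides had a median log2 change of -0.24 and 26.3% of them exceeded 1.5-fold toward Lgr5+ progenitors. The table gives *Bak1* the same interval as *Ggnbp1*, which had 22.9 and 14.8, so that reads of these neighbours may have been shared between them.

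The pro-survival proteins bind and hold back the pore-formers. Their genes above the filter were all lower in Lgr6+ progenitors, by less than the pore-formers *Bax* and *Bak1*. *Bcl2* stood at an FPKM of 15.6 in Lgr5+ and 8.41 in Lgr6+ progenitors, with a log2 change of -0.82. Of the pro-survival genes above the filter, only *Bcl2* was past 1.5-fold. *Bcl2l1*, which encodes Bcl-xL, had 51.5 and 34.9, a log2 change of -0.55 that lay just inside the limit. *Mcl1*, whose short-lived product is needed by many cell types, had 32.1 and 22.5, and *Bcl2l2*, which encodes Bcl-w, had 21.0 and 15.3. In both populations the order was therefore *Bcl2l1*, *Mcl1*, *Bcl2l2* and then *Bcl2*. Summed over the role, pro-survival genes had 120.3 and 81.2, and pore-forming genes had 2.47 times this sum in Lgr5+ and 1.55 times in Lgr6+ progenitors. Without a spread these ratios carry no error, and *Bax* alone sets most of the numerator. *Bcl2l1* shares its listed interval with *Cox4i2*, which had 25.7 and 80.9.

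The other pro-survival genes were listed at or near 0. *Bcl2a1a*, *Bcl2a1b*, *Bcl2a1c* and *Bcl2a1d*, the mouse copies of A1, which is known from blood cells, were listed at 0 in both populations. These copies are nearly identical, so reads that map to several of them could be lost in such an analysis and the zeros are uncertain. *Bcl2l10*, known best from the oocyte, was listed at 0 in Lgr5+ and at 0.103 in Lgr6+ progenitors, a value that corresponds to 2.62 of these steps.

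The BH3-only proteins trigger the pathway, and their genes lay on both sides of the comparison. *Bbc3*, located on chromosome 7 (16309583 to 16318334), which encodes the p53 target Puma, stood at an FPKM of 9.13 in Lgr5+ and 2.35 in Lgr6+ progenitors, with a log2 change of -1.59. *Bmf*, whose product senses detachment and cytoskeletal stress, had 5.56 and 2.02, a log2 change of -1.12. *Bcl2l11*, which encodes Bim, had 7.72 and 4.68, and its log2 change of -0.62 was close to the limit. *Bik*, located on chromosome 15 (83526862 to 83544635), was the exception, with 9.55 in Lgr5+ and 35.1 in Lgr6+ progenitors and a log2 change of 1.77. With a pseudocount of 1 this was the largest difference toward Lgr6+ progenitors of any member, and with a pseudocount of 0.1 that of *Casp1* was larger. Its product sits on the endoplasmic reticulum.

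The remaining BH3-only genes lay within 1.5-fold on the log2(FPKM + 1) scale. *Bad*, which links growth factor signalling to apoptosis, was the most abundant of the role at 53.7 and 39.4. *Bid*, the bridge from death receptors to mitochondria, had 8.70 and 7.23, and *Hrk*, a neuronal BH3-only gene, had 7.27 and 4.77. The ratio of FPKM for *Hrk* was 1.52, and it passed 1.5-fold with a pseudocount of 0.1 and after quantile normalization. *Pmaip1*, which encodes the p53 target Noxa, was at 0.0221 in Lgr5+ progenitors and listed at 0 in Lgr6+ progenitors. Its Lgr5+ value corresponds to 0.421 of a step, so values below the step occur. The summed FPKM of the role was 101.6 in Lgr5+ and 95.5 in Lgr6+ progenitors. *Bad* stood at 5.62 times the level of *Bik* in Lgr5+ progenitors but at 1.12 times in Lgr6+ progenitors. *Bad* shares its interval with *Gpr137*, which had 35.5 and 25.7.

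The initiator caspases lay on both sides of the comparison. *Casp8*, located on chromosome 1 (58795374 to 58847503), which starts the death receptor pathway, stood at an FPKM of 4.18 in Lgr5+ and 10.2 in Lgr6+ progenitors, with a log2 change of 1.11. *Casp9*, located on chromosome 4 (141793612 to 141815978 in RefSeq), the initiator of the mitochondrial pathway, had 1.18 and 3.77, a log2 change of 1.13. *Casp2*, an initiator that acts in DNA damage responses, differed in the opposite direction, with 15.0 and 8.60, a log2 change of -0.73. *Casp2* was thus 3.58 times as abundant as *Casp8* in Lgr5+ progenitors and 0.844 times as abundant in Lgr6+ progenitors. The value of *Casp9* in Lgr5+ progenitors lay close to the filter, and its listed interval also holds *Cela2a*, which was listed at 0 in both.

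*Apaf1*, located on chromosome 10 (90989311 to 91082743), the scaffold on which caspase 9 is activated, showed the largest difference of any member toward Lgr5+ progenitors. Its FPKM was 4.88 in Lgr5+ and 0.252 in Lgr6+ progenitors, with a log2 change of -2.23 and a ratio of FPKM of 19.3. The partners of the apoptosome thus differed in opposite directions, and *Apaf1* stood at 4.12 times the level of *Casp9* in Lgr5+ progenitors and at 0.0668 times in Lgr6+ progenitors. With the longest annotated transcript, the Lgr6+ value of *Apaf1* corresponds to 40.3 times the step at which low values piled up, and its Lgr5+ value to 242 steps. Both values lay above 1 step, although whether a step is 1 fragment of 1 library is not known.

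Of the executioner caspases, which cleave the bulk of cellular substrates, *Casp6* had an FPKM of 20.6 in Lgr5+ and 16.7 in Lgr6+ progenitors, and its log2 change of -0.29 lay within 1.5-fold.

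The caspases grouped here as inflammatory were listed at 0 in Lgr5+ progenitors and at low values in Lgr6+ progenitors. Among them, caspase 1 processes interleukins and gasdermin D. *Casp1*, located on chromosome 9 (5298517 to 5307281), stood at an FPKM of 1.91 in Lgr6+ progenitors. Its neighbours on the same chromosome, *Casp4* from 5308860 to 5336791 and *Casp12* from 5345476 to 5373034, had 0.345 and 0.627, below the filter. The Lgr6+ value of *Casp1* corresponds to 62.1 steps, and the same FPKM would have been 19.3 steps in Lgr5+ progenitors. For *Casp12* the numbers were 37.7 and 11.7, and for *Casp4* they were 14.7 and 4.58. Macrophage markers differed in the same direction. Of 12 macrophage markers 11 were in the table, and all 9 above the filter exceeded 1.5-fold toward Lgr6+ progenitors. Their summed FPKM over the 11 genes was 4.22 in Lgr5+ and 274.5 in Lgr6+ progenitors, and 6 of them, among them *C1qb*, *Tyrobp*, *Csf1r* and *Ptprc*, were listed at 0 in Lgr5+ progenitors. *Ptprc* was at 0.00814 in Lgr6+ progenitors. All 6 endothelial markers were also at least 1.5-fold higher there, with sums of 10.9 and 80.7. The part of these cells in the caspase values was not tested. *Casp14*, the caspase of the epidermis, was listed at 0 in both populations.

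The IAP genes lay within 1.5-fold, and their antagonist did not. *Xiap*, a direct inhibitor of caspases, had 8.41 and 8.27, a log2 change of -0.02 that turned positive under upper quartile and summed FPKM scaling. *Birc2*, a ubiquitin ligase of the tumour necrosis factor pathway, had 17.5 and 13.2, a log2 change of -0.38. *Birc3*, its relative beside it on chromosome 9, was listed at 0 in Lgr5+ and at 0.0163 in Lgr6+ progenitors, which is 1.11 steps. *Diablo*, located on chromosome 5 (123511330 to 123524164 in RefSeq), whose product leaves mitochondria to neutralize IAPs, had 54.0 and 91.2, a log2 change of 0.75. It was therefore 6.43 times as abundant as *Xiap* in Lgr5+ and 11.03 times in Lgr6+ progenitors. The table gives *Diablo* the same interval as *B3gnt4*, which had 2.59 and 23.8, so reads could have been shared between them.

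In the p53 module, *Trp53*, located on chromosome 11 (69580359 to 69591873), stood at an FPKM of 26.9 in Lgr5+ and 13.2 in Lgr6+ progenitors, with a log2 change of -0.97. *Mdm2*, the ubiquitin ligase that degrades p53 and is itself a p53 target, had 23.5 and 33.0, a log2 change of 0.47 that lay inside the limit and passed it under upper quartile and summed FPKM scaling. *Mdm4*, its relative, had 3.85 and 5.09, a log2 change of 0.33. *Trp53* and *Mdm2* were at a ratio of 1.14 in Lgr5+ and of 0.399 in Lgr6+ progenitors. Among the genes with a half-site in the promoter, *Bax*, *Trp53* and *Bmf* were lower and *Mdm2* was higher in Lgr6+ progenitors. Of all members above the filter 71.9% were lower there, so these directions are not particular to genes with a half-site.

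The other Bcl2-like genes have roles that are less settled. *Bcl2l12* stood at an FPKM of 40.5 and 26.1, a log2 change of -0.61 close to the limit, and shares its interval with *Gm15545*, which had 3.69 and 3.21. *Bcl2l14* had 12.0 and 5.13, a log2 change of -1.08. *Bcl2l15* had 3.18 and 0.958, a log2 change of -1.09, and the table lists it on an interval of 660796 bases together with 9 other genes, so its value is uncertain. *Bcl2l13*, a mitochondrial protein linked to mitophagy, had 2.87 and 3.58, and its log2 change of 0.24 turned to -0.01 after quantile normalization.

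**Figure D3:**
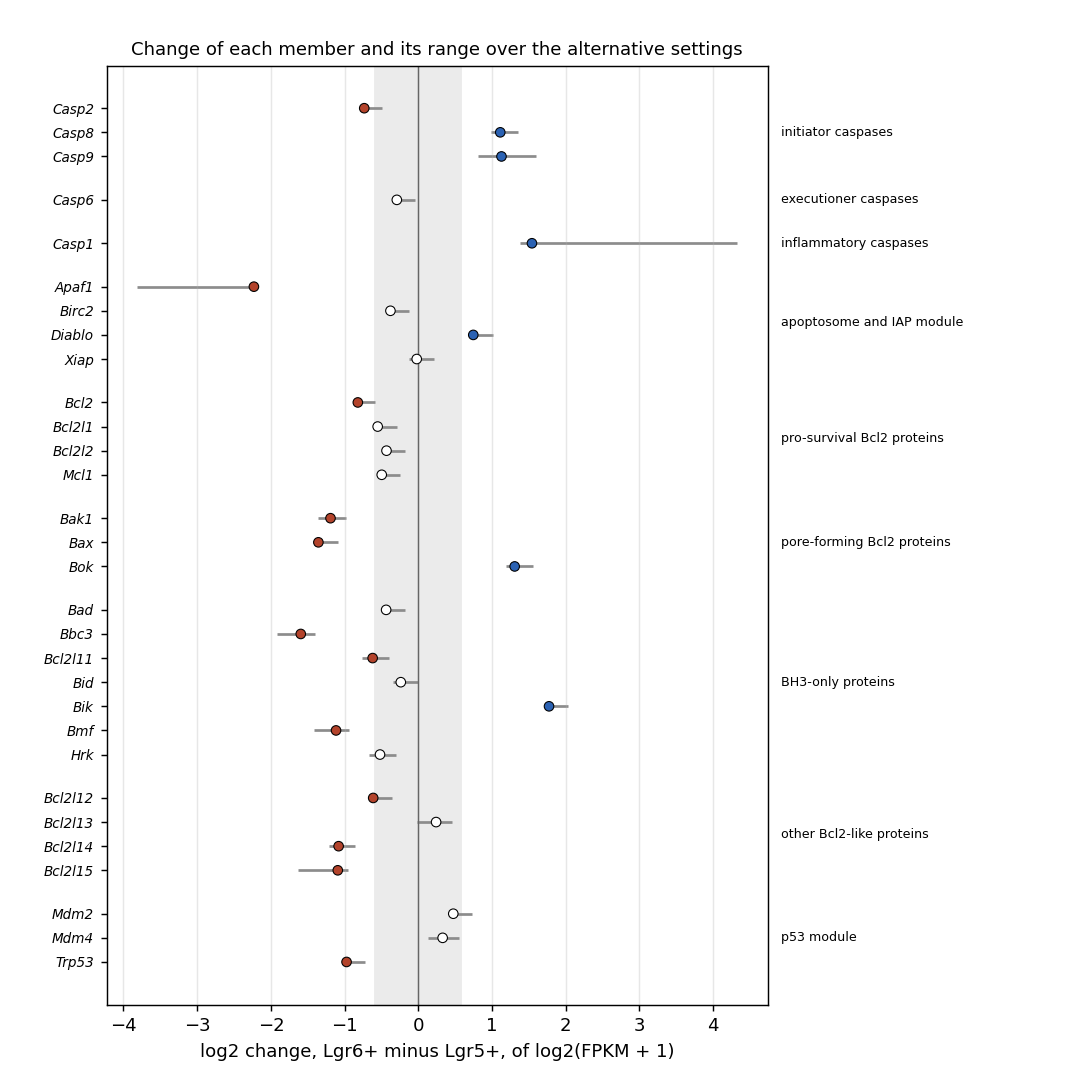
Log2 change of each of 30 members, grouped by role, as a circle filled red where the gene is at least 1.5-fold higher in Lgr5+ progenitors, blue where it is so in Lgr6+ progenitors and white in between (grey band). Grey lines run from the lowest to the highest value over the alternative settings and are no replicate error; those of *Apaf1* and *Casp1* reach -3.82 and 4.33 with a pseudocount of 0.1.

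Genes around the members were taken from lists of the pathway. Among all genes above the filter, 23.3% were at least 1.5-fold higher in Lgr5+ and 28.5% in Lgr6+ progenitors. Of 18 death receptor and adaptor genes 12 passed the filter, 3 at least 1.5-fold higher in Lgr5+ and 3 in Lgr6+ progenitors. *Cradd*, the adaptor that joins caspase 2 to its platform, had 15.3 and 7.53, a log2 change of -0.94. *Tnfrsf25*, *Tradd* and *Cflar*, a death receptor, an adaptor and a caspase 8 regulator, had log2 changes of 1.82, 1.08 and 0.91. The death receptors *Tnfrsf10b*, at 4.25 and 1.499, and *Ngfr*, at 2.04 and 0.531, were past 1.5-fold toward Lgr5+ progenitors. Both lay below the level set for naming and were named here after their values were seen. *Fas*, *Fasl* and *Tnf*, singled out after their values were seen, were listed at 0 in both populations. Of the 16 mitochondrial and execution factors, all above the filter, 3 exceeded 1.5-fold toward Lgr5+ and 5 toward Lgr6+ progenitors. These counts lay close to the shares of all genes, as did those of the death receptor list. *Endog*, a mitochondrial nuclease, had 1.69 and 34.7, a log2 change of 3.73. *Dffb*, a nuclease that cuts DNA during apoptosis, had 9.16 and 21.9, *Aifm1* had 21.8 and 40.0, and *Cycs*, which encodes cytochrome c, had 74.3 and 113. On the other side *Panx1*, a channel opened by caspases, had 37.1 and 14.1, *Vdac3* had 157 and 100.5, and *Rock1* had 29.2 and 18.6. Of 8 genes on the list of other IAP genes 3 passed the filter, none of them at least 1.5-fold higher in Lgr5+ progenitors. Within 1.5-fold lay 2 of them. The 1 past it toward Lgr6+ progenitors was *Xaf1*, at 0.961 and 2.25, which encodes an Xiap-associated factor and not an IAP. It lay below the level set for naming and was named after its values were seen.

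The p53 target list held 21 genes of the table, 17 of them above the filter, with 6 at least 1.5-fold higher in Lgr5+ and 5 in Lgr6+ progenitors. Without the 4 members on that list the numbers were 4 and 5 of 14, with a median log2 change of -0.47. Among all genes above the filter the shares were 23.3% and 28.5%. *Aen*, a nuclease induced by p53, had 16.7 and 1.39, a log2 change of -2.89, and *Ccng1* had 11.1 and 4.95, a log2 change of -1.02. On the other side *Perp*, a membrane protein of epithelia, *Rprm*, *Phlda3* and *Sesn1* had log2 changes of 2.05, 1.62, 1.33 and 1.07. Genes of the list thus lay on both sides. The table held 13 pyroptosis and necroptosis genes, of which 6 passed the filter, none at least 1.5-fold higher in Lgr5+ and 3 in Lgr6+ progenitors. *Ripk3*, the kinase that starts necroptosis, had 0.0769 and 6.16, a log2 change of 2.73. *Dfna5*, a gasdermin whose human gene underlies an inherited deafness, had 1.13 and 6.57, a log2 change of 1.83.

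Markers of the cells that the sort could hold also differed and stand beside every result above. Of 8 HC markers, 6 exceeded 1.5-fold toward Lgr6+ progenitors and none did so on the other side, with *Otof* at 41.6 and 171. Of 8 supporting cell markers, 3 exceeded 1.5-fold toward Lgr5+ progenitors, *Hes5*, *Sox2* and *Jag1*, and 1 did so toward Lgr6+ progenitors. *Hes5* was at 505 and 91.7. Of 6 erythroid markers, 4 exceeded 1.5-fold toward Lgr5+ progenitors, with summed FPKM of 630 and 108. Summed FPKM was 33.8 and 147 for 6 Schwann and glial markers, 33.4 and 80.9 for 6 neuronal markers, 325 and 344 for 8 markers of fibroblasts and otic mesenchyme, and 9.90 and 5.02 for 6 neutrophil markers, 5 of which were listed at 0 in both populations. Of the 8 fibroblast and mesenchyme markers, 3 exceeded 1.5-fold toward Lgr6+ and 1 toward Lgr5+ progenitors. *Col1a2* had 15.8 and 90.2, and *Lum* had 179 and 101, so the similar sums hid opposite differences. The part of any of these cells in the values of the members was not tested.

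**Figure D4:**
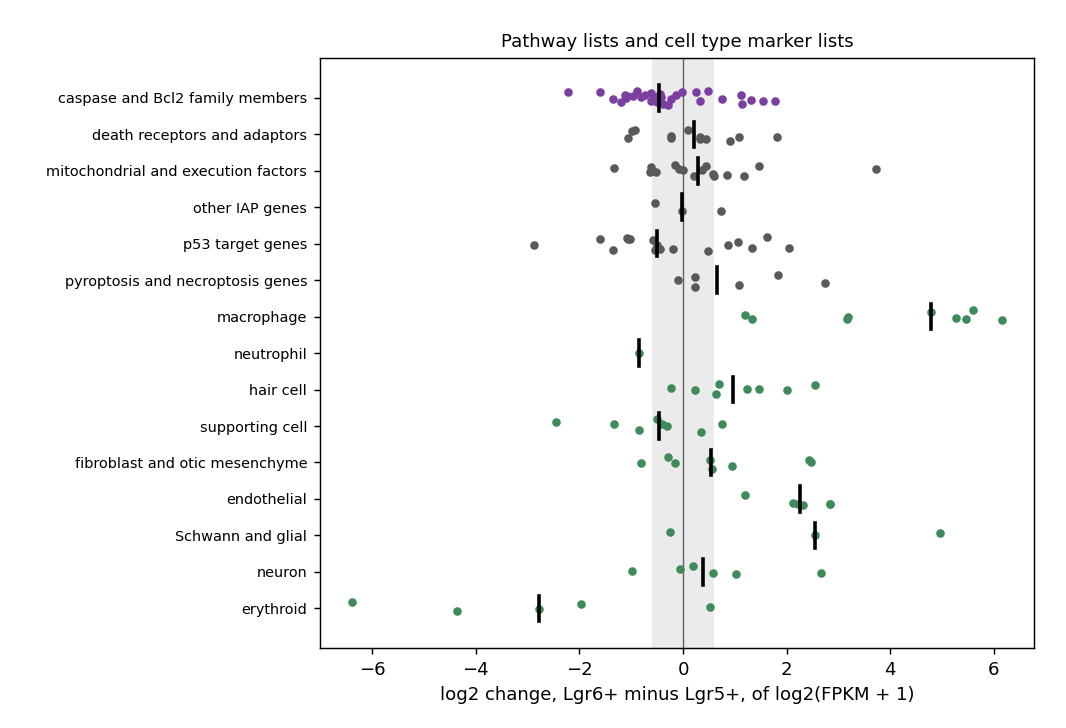
Log2 change of the genes above the filter in each list, with the median as a black bar and the grey band marking differences under 1.5-fold; members in purple, pathway lists in dark grey and cell type markers in green, each point 1 gene without error. The members centre at -0.47, the macrophage markers at 4.79, the endothelial markers at 2.26 and the HC markers at 0.97.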

How the data were processed

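RNA from sorted cells of each population was amplified by the authors with a low-input SMART-Seq kit and sequenced as paired ends. Per the labels and the methods, the authors used Trimmomatic for trimming, TopHat for mapping and Cufflinks for FPKM, in versions not given in the sources used here. In the table the authors deposited, FPKM is given once per gene and population, over the libraries combined. Their columns of fold changes, *p*-values and *q*-values were not used.

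The methods name mm9, but the submitters' processing notes name mm10. Of 19493 genes, 99.1% of the listed intervals overlapped the gene in GRCm38 and 12.7% in NCBIM37. Starts are given here from 1, since 9814 listed starts lay 1 base below the RefSeq start.

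A limma fit had been planned in case values per sample were deposited, and was not run. Genes that reached 1 FPKM in either population were retained, a pseudocount of 1 was added, and a 1.5-fold difference was counted. Pathway genes were named where they passed this with an FPKM of at least 5, at most 4 a side. The values of 2 members are not reported here, although the counts over members hold them. The step was read among 7050 genes with 1 annotated transcript, after 200 bases were taken from its length. It was the largest pile-up of low values, with 96 genes in Lgr5+ and 43 in Lgr6+ progenitors. Neighbouring stretches of the same width held 10.5 and 8.5. The step lay at 0.128 FPKM times kilobase in Lgr5+ and 0.0399 in Lgr6+ progenitors, and the table itself gives no depth per library. Read totals stated with the study were not used here. Members, lists and settings were chosen with earlier results of these data known. Python 3.11.15, numpy 2.4.6 and pandas 2.3.3 were used, and the counting was tested on simulated data.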

Additional observations from a re-analysis of the deposited data

How the results depend on the processing

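The number of members at least 1.5-fold higher in Lgr5+ progenitors ranged from 9 to 14 over the other pseudocount, filters and scalings. That in Lgr6+ progenitors ranged from 4 to 7. As shares of the members retained, these ranged from 28.1% to 43.8% and from 14.8% to 21.9%. The shares of all genes ranged from 13.5% to 26.5% and from 17.4% to 37.6%. The median log2 change of the members ranged from -0.50 to -0.19. At 2-fold the numbers were 7 and 5, or 21.9% and 15.6% of the members, against 11.7% and 18.2% of all genes. Of the 19 members past 1.5-fold, 12 kept the call and its direction in every setting that retained them, and 7 lost it in at least 1, among them *Bcl2*, *Bcl2l11*, *Bcl2l12* and *Casp2*, and, at 2-fold alone, *Diablo* and *Trp53*. *Mdm2* passed 1.5-fold toward Lgr6+ progenitors under upper quartile and summed FPKM scaling, and *Hrk* passed it toward Lgr5+ progenitors with a pseudocount of 0.1 and after quantile normalization. Quantile normalization left values of 0 at 0. The cause of these shifts was not tested. No paired analysis was possible because the columns hold 1 combined value for each population, and for the same reason leaving out each replicate was not run. Depth per library could not be read from the table, so zeros carry no upper limit.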
